A study of Mus musculus with 19 samples.

Results

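The genes described here are 7 genes that theca cells use to make steroids: Scarb1, Star, Cyp11a1, Fdx1, Hsd3b1, Cyp17a1 and Nr5a1. They were chosen for their role in the pathway, with earlier results of these data known. Their values come from the probe sets that the array annotation gives to 1 of these genes alone. These are 14 probe sets of the 34945 annotated to a single gene. All 7 genes were among the 12379 genes tested, and no probe set named a member together with another gene.

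The RNA came from ovaries of mice aged 2 months. Ihh_Dhh_dKO ovaries (3 arrays) lack Ihh and Dhh, Dhh_KO ovaries (4 arrays) lack Dhh, and Ihh_KO ovaries (4 arrays) lack Ihh. Ihh_Dhh_dhet ovaries (8 arrays), the controls, are heterozygous for both genes, so every control lacks 1 copy of each. For every sample the labels describe the deletion as specific to the ovary, and they name neither the Cre driver nor the cells in which it acts. The labels do not say whether arrays of a group come from different animals, so p-values measure the spread between these samples, which may be technical.

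The arrays fell into 2 hybridization sets, which the labels do not mention and which the 3'/5' ratio of the spiked BioC control separated (0.987 to 1.06 against 0.685 to 0.781). The Ihh_Dhh_dKO arrays belong with control arrays 1 to 4, and the Dhh_KO and Ihh_KO arrays belong with control arrays 5 to 8. Each mutant group was therefore set against the 4 controls of its own set. The deviations of control arrays 1 and 5, 2 and 6, 3 and 7, and 4 and 8 from their set means matched (across genes, r from 0.54 to 0.77), so these pairs are not independent samples. Dhh signals were 3.85 to 14.2 in Ihh_Dhh_dKO, against 606 to 1371 in controls 1 to 4, and 5.14 to 25.4 in Dhh_KO, against 621 to 1085 in controls 5 to 8. Ihh signals were 36.3 to 52.7 in Ihh_Dhh_dKO, against 139 to 425 in controls 1 to 4, and 12.5 to 43.5 in Ihh_KO 1 to 3, against 160.0 to 238 in controls 5 to 8. The array labelled Ihh_KO 4 went against its label, with a Dhh signal of 2.96 where Ihh_KO 1 to 3 read 527 to 709, and with an Ihh signal of 108. Results of the 7 genes that rest on Ihh_KO are given with and without it. The granulosa gene Foxl2 (3575 to 5143) and the oocyte gene Zp3 (1129.7 to 4264) were present on every array.

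Theca cells form the outer layer of the growing follicle and make androgens under the control of luteinizing hormone. Cholesterol enters the cell through receptors such as Scarb1, Star moves it to the inner mitochondrial membrane, Cyp11a1 with its electron donor Fdx1 turns it into pregnenolone, and Hsd3b and Cyp17a1 enzymes carry it on towards androgens, which granulosa cells convert to oestrogens. Dhh and Ihh, Desert and Indian hedgehog, are ligands secreted by granulosa cells that act on the mesenchymal precursors of theca cells. Several of these genes are not theca genes alone: luteal cells express Star, Scarb1, Cyp11a1, Fdx1 and Hsd3b1, and granulosa cells express Nr5a1. In RNA from whole ovaries, fewer cells of a type and less RNA per cell cannot be told apart.

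Ihh_Dhh_dKO ovaries against controls 1 to 4. All 7 genes were lower in Ihh_Dhh_dKO, and 3 of them, Star, Cyp11a1 and Fdx1, passed the test. These are the genes of cholesterol import into mitochondria and of its conversion to pregnenolone. Over all genes tested, 3.02% were called in this comparison and 1.45% were called lower (limma, Benjamini-Hochberg adjusted p under 0.05). The median log2 difference of the 7 genes was -1.21, beside 0.02 for all genes tested. Differences below are on the scale of log2(signal + 7.02).

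Scarb1, the receptor that takes up cholesterol esters from high-density lipoprotein, had signals of 2419.9, 2275 and 1248 in Ihh_Dhh_dKO, against 5123, 5197, 4651 and 3075 in controls 1 to 4. Every Ihh_Dhh_dKO array lay under every control array of the set. The log2 difference was -1.21 (SE 0.37) and did not pass the test (limma, adjusted p = 0.087). It passed once the array labelled Ihh_KO 4, which enters through the shared estimate of spread and the filter, was left out (SE 0.29; limma, adjusted p = 0.030). That fit called 4 of the 7 genes, Scarb1 beside Star, Cyp11a1 and Fdx1, and 3.14% of all genes.

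Star, the carrier that limits the rate of steroid synthesis, had signals of 2289, 2738 and 666 in Ihh_Dhh_dKO, against 4243, 6031, 7260.1 and 5264 in controls 1 to 4. The groups did not overlap, and Ihh_Dhh_dKO 3 was the lowest array by far. Star averaged 1897 ± 1089.9 in Ihh_Dhh_dKO and 5699 ± 1272 in controls (SD, n = 3 and n = 4), a log2 difference of -1.79 (SE 0.34; limma, adjusted p = 0.0074). This is 3.46-fold lower, and without Ihh_Dhh_dKO 3 the log2 difference was -1.16 (adjusted p = 0.024).

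Cyp11a1, the cytochrome P450 that cleaves the cholesterol side chain, had signals of 6016, 4928 and 1055 in Ihh_Dhh_dKO, against 10671, 11658, 11398 and 5545 in controls 1 to 4. Here the groups overlapped, since Ihh_Dhh_dKO 1 read above control 4. The log2 difference was -1.58 (SE 0.41; limma, adjusted p = 0.043), with means of 3999.7 ± 2607 in Ihh_Dhh_dKO and 9818 ± 2879 in controls (SD). The call rested on few arrays: without Ihh_Dhh_dKO 3 the difference was -0.79 (adjusted p = 0.15), and it passed the test in 5 of the 19 fits that left out 1 array.

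Fdx1, the ferredoxin that hands electrons to Cyp11a1 in the mitochondrion, had signals of 7996, 6223 and 5503 in Ihh_Dhh_dKO, against 11985, 12254, 13639 and 9300.4 in controls 1 to 4. No array of one group reached the other. Fdx1 had the smallest p of the 7 genes, with a log2 difference of -0.85 (SE 0.13; limma, adjusted p = 0.0018), or 1.80-fold lower.

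Hsd3b1, which converts pregnenolone to progesterone, had signals of 11598, 9672 and 13164 in Ihh_Dhh_dKO, against 15245, 16316, 15041 and 12774 in controls 1 to 4. Ihh_Dhh_dKO 3, lowest for the 4 genes above, was highest here and lay within the controls. The log2 difference of -0.38 (SE 0.11) did not pass the test (limma, adjusted p = 0.061). Its probe set ranked between 15 and 65 of 45101 by signal on each array, and the brightest probe set of an array read 15742 to 26148, and compression near the top of the scale was not tested. Mouse Hsd3b genes are close copies of each other, and the signal may include more than 1 of them.

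Cyp17a1, whose 17-hydroxylase and lyase reactions commit steroids to androgens and which marks theca cells most clearly in the ovary, had signals of 565, 303 and 76.8 in Ihh_Dhh_dKO, against 8765, 543, 74.1 and 5918 in controls 1 to 4. All 3 Ihh_Dhh_dKO arrays were low, and so were controls 2 and 3. With the controls spread over more than 2 orders of magnitude, a log2 difference of -2.33 had an SE of 1.68 and a 95% interval from -5.85 to 1.20 (limma, adjusted p = 0.54).

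Nr5a1, the nuclear receptor SF-1 that activates steroidogenic promoters, had signals of 2222, 1966 and 1309.6 in Ihh_Dhh_dKO, against 2488, 3089, 2007 and 2428 in controls 1 to 4. Only Ihh_Dhh_dKO 2 and 3 lay under all 4 controls. Its log2 difference of -0.47 (SE 0.21) did not pass the test (limma, adjusted p = 0.26).

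**Figure D1:**
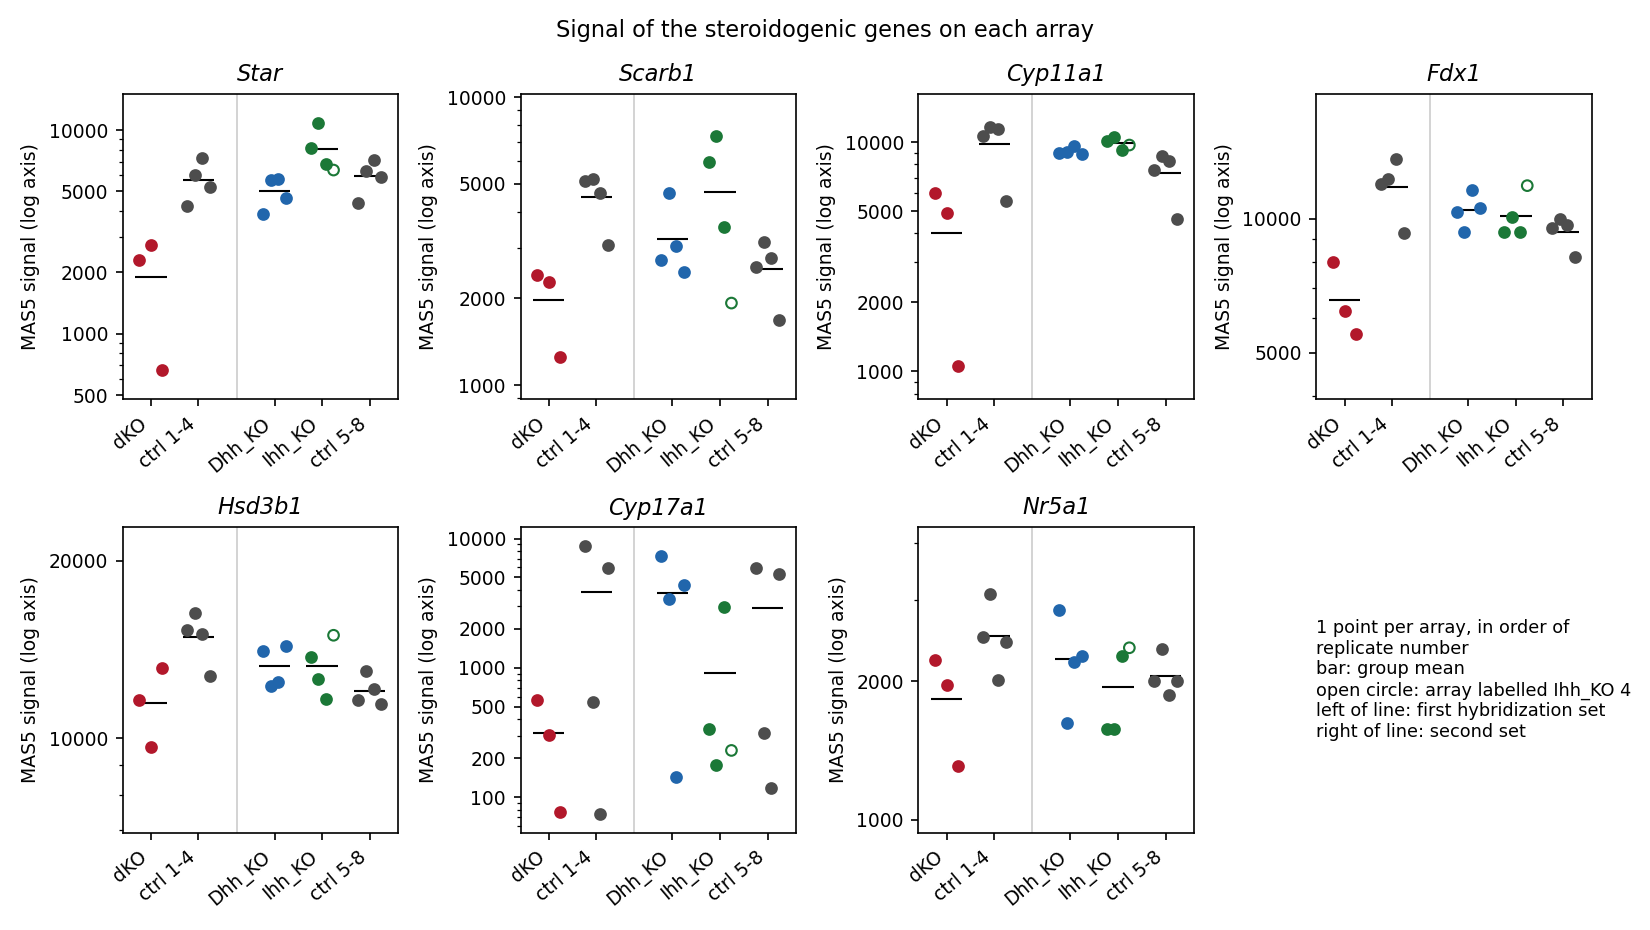
Deposited signal (log10 axis) of the tested probe set of each of the 7 genes; each point is an array, groups run along the horizontal axis with each mutant group left of its controls, the open symbol is the array labelled Ihh_KO 4, and bars show group means. Star, Scarb1 and Fdx1 in Ihh_Dhh_dKO lie under all 4 controls of their set, and Cyp17a1 spreads from 74.1 to 8765 within controls 1 to 4.

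Star, Scarb1 and Fdx1 had every Ihh_Dhh_dKO array under every control of the set. This was so for 3 of the 7 genes and for 6.07% of all genes tested. By array, the median of the 7 log2 deviations from the control mean was -0.65 on Ihh_Dhh_dKO 1, -0.93 on Ihh_Dhh_dKO 2 and -1.82 on Ihh_Dhh_dKO 3, against -0.21 to 0.14 on controls 1 to 4. Of the 3 Ihh_Dhh_dKO arrays, number 3 was the lowest for Star, Scarb1, Cyp11a1, Fdx1, Cyp17a1 and Nr5a1. A fit on the 7 arrays of the set alone called none of the 7 genes (82 genes, or 0.652%, of all tested; limma adjusted p = 0.11 for Star, 0.24 for Cyp11a1 and 0.054 for Fdx1).

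**Figure D2:**
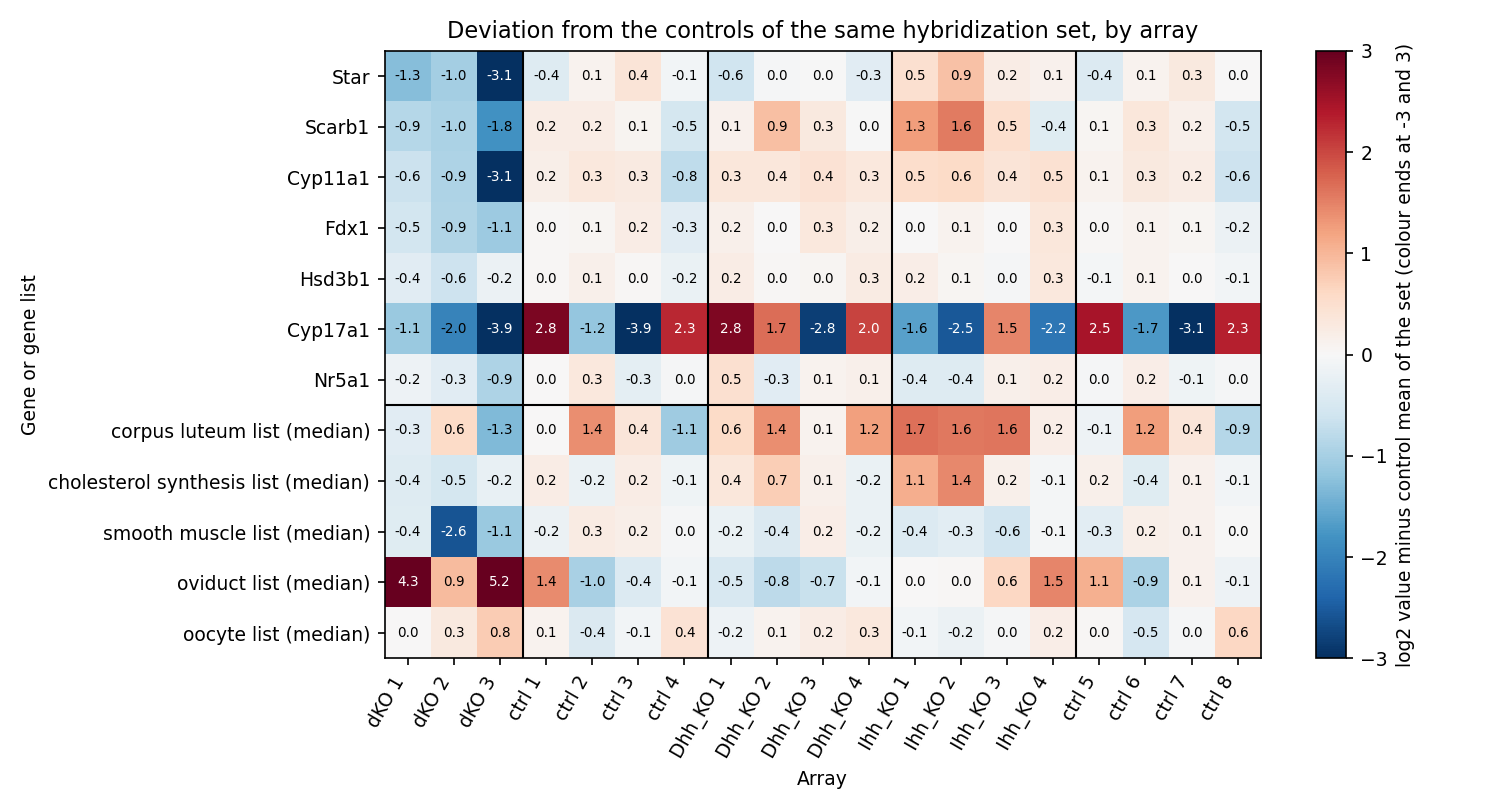
Log2 deviation of each of the 7 genes from the mean of the control arrays of the same set, for all 19 arrays, with mutant arrays before the controls of their set; the lower part gives medians of 5 gene lists. All 7 genes are below the control mean on each Ihh_Dhh_dKO array, with medians of -0.65, -0.93 and -1.82.

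The probe sets of a gene were then compared with one another. Of the 14 probe sets, 13 passed the filter on low signals, and 23341 probe sets were tested one by one, of which 2.15% were called and 1.10% were called lower. All 3 Star probe sets were called lower in Ihh_Dhh_dKO, with log2 differences of -1.79, -2.26 and -2.25 (limma, adjusted p = 0.0085, 0.010 and 0.014). The 3 Scarb1 probe sets stood at -1.21, -1.30 and -1.15, and none was called (limma, adjusted p = 0.098, 0.062 and 0.079). The bright Cyp11a1 probe set stood at -1.58 (limma, adjusted p = 0.049), and a dimmer one read 93.4 to 130.0 in Ihh_Dhh_dKO and 98.3 to 383 in controls 1 to 4, at -0.76 (adjusted p = 0.42). The dimmer Cyp11a1 probe set lay near the filter (a signal of 69.4), and its 95% interval, -1.60 to 0.09, held the value of the bright one. The Cyp11a1 probe set under the filter read 6.86 to 130.0 over all arrays. The dimmer Nr5a1 probe set stood at -0.44 (limma, adjusted p = 0.64).

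**Figure D3:**
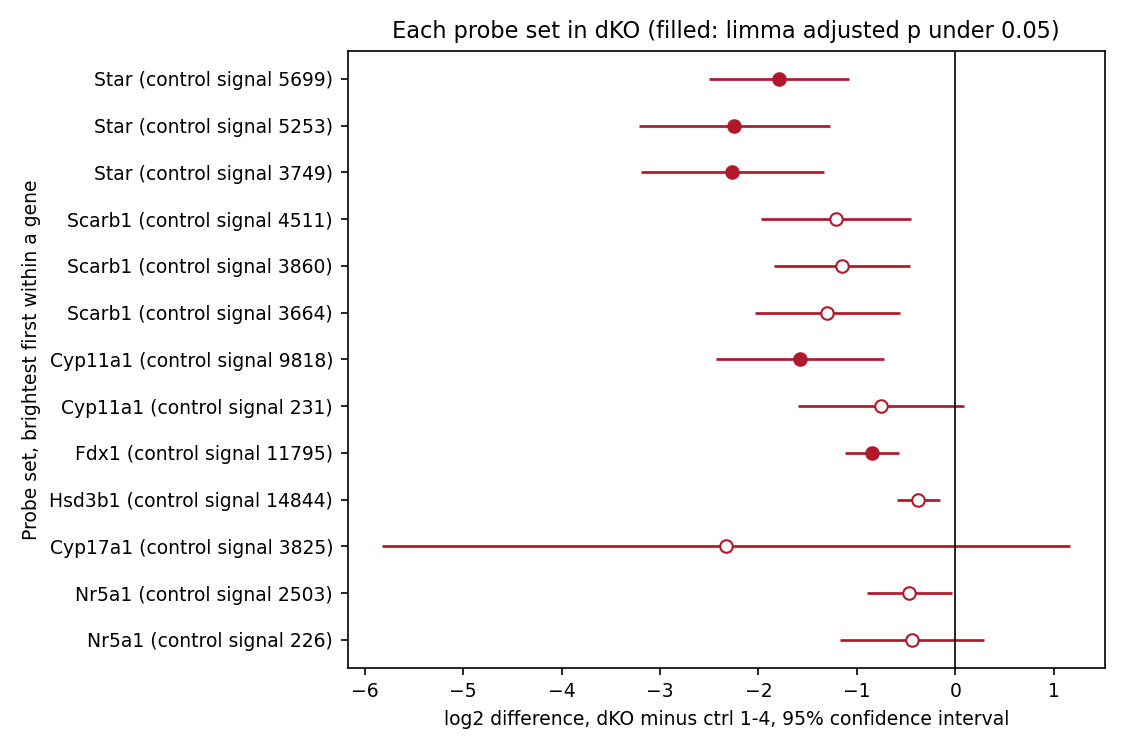
Log2 difference with its 95% interval of each probe set that passed the filter, Ihh_Dhh_dKO minus controls 1 to 4, grouped by gene; filled symbols passed the test across 23341 probe sets. The 3 Star probe sets lie between -2.26 and -1.79, and the 3 Scarb1 probe sets between -1.30 and -1.15.

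Promoter sequence is given for the 3 members that the RefSeq promoter table (build GRCm38.p6) holds, because Cyp11a1 and Fdx1 fell together in Ihh_Dhh_dKO and Hsd3b1 had the smallest difference of the 7 genes. Each window of the table runs from 250 bases before to 50 bases after the start of the gene, 5' to 3' on the gene's strand, at chr9:58014702-58015001 (plus strand) for Cyp11a1, chr9:51963553-51963852 (minus strand) for Fdx1 and chr3:98859745-98860044 (minus strand) for Hsd3b1. Capitals mark the motif matches found. A second Cyp11a1 start in the table, at chr9:57997774-57998073, held no match.
Cyp11a1: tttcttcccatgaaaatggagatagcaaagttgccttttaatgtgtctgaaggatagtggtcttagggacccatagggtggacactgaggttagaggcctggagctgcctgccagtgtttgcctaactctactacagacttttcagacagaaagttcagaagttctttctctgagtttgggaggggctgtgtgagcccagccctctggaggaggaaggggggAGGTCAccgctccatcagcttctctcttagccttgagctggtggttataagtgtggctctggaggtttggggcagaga
Fdx1: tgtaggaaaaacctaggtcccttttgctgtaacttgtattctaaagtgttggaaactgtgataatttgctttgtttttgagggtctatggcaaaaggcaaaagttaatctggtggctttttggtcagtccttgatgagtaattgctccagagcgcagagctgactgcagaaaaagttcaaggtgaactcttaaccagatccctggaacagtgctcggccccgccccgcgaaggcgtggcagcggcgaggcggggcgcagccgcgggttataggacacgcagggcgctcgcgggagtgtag
Hsd3b1: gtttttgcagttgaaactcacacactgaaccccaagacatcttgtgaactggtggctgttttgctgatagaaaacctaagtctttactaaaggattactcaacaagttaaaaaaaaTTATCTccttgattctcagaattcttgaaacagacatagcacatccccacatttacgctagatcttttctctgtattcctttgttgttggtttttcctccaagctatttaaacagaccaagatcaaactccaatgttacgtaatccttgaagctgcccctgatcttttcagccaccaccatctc
Both strands were searched for AAGGTCA, a form of the site bound by Nr5a1, and for AGATAA, a form of the site bound by GATA factors. They were also searched for ACCACCC, the core of the site bound by the GLI factors of the Hedgehog pathway. AGGTCA, which lies within AAGGTCA, was added to the search after the promoters were read. Other forms of these sites were not searched, so a window without a match may still hold such a site. None of the 4 windows held AAGGTCA or ACCACCC, which 4.72% and 4.61% of the 32851 promoters in the table held. The Cyp11a1 window held AGGTCA at -28 (16.3% of promoters), and the Hsd3b1 window held AGATAA on the opposite strand at -134, printed as TTATCT (11.2% of promoters). Star, Scarb1, Cyp17a1 and Nr5a1 were not among the promoters read.

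Other genes of the pathway gave the following in Ihh_Dhh_dKO. None of the 9 tested genes of cholesterol synthesis was called, although all 9 were lower (median log2 difference -0.40), with Hmgcs1 at 5172 ± 618 in Ihh_Dhh_dKO and 6837 ± 1009.1 in controls 1 to 4 (SD; limma, adjusted p = 0.18). None of 11 genes of cholesterol uptake, storage and transport was called (median -0.13), and none of 13 other steroid enzymes was (median 0.11). Of 5 genes of electron transfer to steroid P450 enzymes, only Fdx1 was called, while Cyb5b, a mitochondrial cytochrome b5, stood at -0.48 (limma, adjusted p = 0.22). Of the other steroid enzymes, Hsd11b1, which regenerates active glucocorticoid, stood at 1.32 (limma, adjusted p = 0.16) and Hsd17b11, a hydroxysteroid dehydrogenase, at -0.51 (adjusted p = 0.27). Hsd17b1, on the granulosa list and the enzyme there that makes oestradiol, read 7162 ± 1332 in Ihh_Dhh_dKO and 5849 ± 424 in controls (SD; log2 difference 0.28, limma adjusted p = 0.38).

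Among 13 genes of luteinizing hormone and cAMP signalling, Adcy7, an adenylyl cyclase, fell. Its signal was 456 to 527 in Ihh_Dhh_dKO, against 1169.6 to 1872 in controls 1 to 4, a log2 difference of -1.46 (SE 0.17; limma, adjusted p = 3.5e-04). Of 14 transcription factors of steroid cells, Gata6 and Wt1 rose and Nr2f2 fell. Gata6, which activates steroidogenic promoters, averaged 2522 ± 69.2 in Ihh_Dhh_dKO and 1463 ± 44.1 in controls (SD; 0.78, adjusted p = 0.0016). Nr2f2, a nuclear receptor of ovarian stroma and theca, averaged 3178 ± 502 in Ihh_Dhh_dKO and 5427 ± 317 in controls (SD; -0.78, adjusted p = 0.0016), and Wt1, a factor of granulosa and surface epithelium, stood at 0.77 (adjusted p = 0.0077). Cebpb, a factor induced by luteinizing hormone, was at -0.71 (adjusted p = 0.13).

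Of 11 tested theca and Leydig cell markers, a list that shares 4 genes with the members, 8 were lower and 3 higher (median -0.71). Insl3 and Lhcgr, also on the list, had no single-gene probe set. Among the tested markers, 4 were called lower. These were Star and Cyp11a1, the mesenchymal factor Tcf21 at -0.71 (limma, adjusted p = 0.015) and the smooth muscle actin Acta2 at -0.90 (adjusted p = 0.0034). Pdgfra, a receptor of mesenchymal precursors, was at -0.61 (adjusted p = 0.12), and Aox1, an aldehyde oxidase, was at -0.72 (adjusted p = 0.25). The adrenal genes Cyp11b1, Cyp11b2, Cyp21a1 and Mc2r lay under the filter. Mrap, the 1 tested gene of the adrenal list, was at -1.16 (limma, adjusted p = 0.27).

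Markers of other cells moved in the same arrays, and their part in the differences above was not tested. Of 8 smooth muscle genes all were lower in Ihh_Dhh_dKO and 4 were called, Myh11 at -1.96, Actg2 at -2.25, Lmod1 at -1.91 and Acta2. Their summed signal was 5238 to 12204 in Ihh_Dhh_dKO and 14240.0 to 19064 in controls 1 to 4. Of 7 endothelial genes 6 were lower (list median -0.45) and 1, Emcn, was called (-0.98, limma, adjusted p = 0.0064). Tek (-0.63, limma, adjusted p = 0.090) and Cdh5 (-0.50, adjusted p = 0.20) were not called. The endothelial list sum was 2874 to 3981 in Ihh_Dhh_dKO and 4071 to 5451 in controls. Of 9 genes of surface epithelium and mesothelium, 8 were higher and 1, Aldh1a2, was lower (-0.83, limma, adjusted p = 0.25). Krt8 (1.02) and Krt18 (1.39) were called higher, with list sums of 8270.1 to 11160 in Ihh_Dhh_dKO and 5192 to 7268 in controls. The oviduct genes Wfdc2 (2.87) and Plet1 (3.60) rose, 2 of 3 tested, with sums over 7 genes of 6533, 504 and 10964 on Ihh_Dhh_dKO 1, 2 and 3, against 188 to 854 in controls. Granulosa genes (0 of 10 called, 6 higher, list median 0.07) and oocyte genes (0 of 9 called, 8 higher, list median 0.33) gave no call. Sums of 8 corpus luteum genes overlapped, at 16671, 21935 and 8485 on Ihh_Dhh_dKO 1, 2 and 3, against 6331 to 35703 in controls. Of 7 tested genes 1, Sdc4, was called (0.44), with a list median of -0.53. Sums of 5 adipocyte genes were 2176, 315 and 4254 on Ihh_Dhh_dKO 1, 2 and 3, against 882 to 2060 in controls, and none of 3 tested genes was called. Of 6 macrophage genes, Cd163 fell (-1.58), while 4 were higher without a call (list median 0.33).

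Dhh_KO ovaries against controls 5 to 8. None of the 7 genes was called in Dhh_KO (limma), and none had an unadjusted p under 0.05. No gene at all was called in this comparison (0%), and 10.1% had an unadjusted p under 0.05. The median log2 difference of the 7 genes was 0.16, beside -0.03 for all genes tested, and 6 of the 7 were higher.

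Star had signals of 3886, 5706, 5771 and 4648 in Dhh_KO, against 4398, 6297, 7145 and 5873 in controls 5 to 8, and the groups overlapped (log2 difference -0.24, 95% interval -0.91 to 0.43). Cyp11a1 had signals of 8993, 9046, 9621 and 8901 in Dhh_KO, against 7571, 8738, 8309 and 4607 in controls 5 to 8. Each Dhh_KO array thus lay above each control, which was so for 1 of the 7 genes and 2.19% of all genes tested, yet the log2 difference of 0.36 did not pass the test (limma, adjusted p = 0.79). Control 8 stood well below the other 3 controls.

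Fdx1 averaged 10481 ± 921 in Dhh_KO and 9348 ± 769.6 in controls 5 to 8 (SD, n = 4 each), at 0.16 with a 95% interval of -0.09 to 0.42. Scarb1 averaged 3225 ± 985 in Dhh_KO and 2539 ± 615 in controls (0.34, interval -0.38 to 1.05), and Hsd3b1 averaged 13287 ± 1073 in Dhh_KO and 12054 ± 704 in controls (0.14, interval -0.07 to 0.34). Cyp17a1 had signals of 7344, 3399, 144 and 4336 in Dhh_KO, against 5927, 317, 117 and 5321 in controls 5 to 8. Low and high arrays stood in both groups (0.92, interval -2.34 to 4.19). Nr5a1 averaged 2235 ± 508 in Dhh_KO and 2055 ± 210.3 in controls (0.10), while its dimmer probe set read 344 to 1260.3 in Dhh_KO and 299 to 659.5 in controls (0.64, unadjusted p = 0.063, limma).

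The Gapdh 3'/5' ratio, a measure of RNA length, was 2.08 to 2.79 in Dhh_KO and 1.89 to 2.01 in controls 5 to 8, and its part in these values was not tested. None of the pathway or cell type genes on the 17 lists was called in Dhh_KO. Of 9 cholesterol synthesis genes, 8 were higher (median log2 difference 0.25). Corpus luteum genes summed to 15125 to 29427 in Dhh_KO and 6286 to 28616 in controls 5 to 8, with 6 of 7 tested genes higher (median 0.97).

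Ihh_KO ovaries against controls 5 to 8. None of the 7 genes was called in Ihh_KO (limma), and Scarb1 alone had an unadjusted p under 0.05. Of all genes tested, 0.0162% were called (2 genes) and 14.0% reached an unadjusted p under 0.05. When the array labelled Ihh_KO 4 was left out, 0.379% were called, and again none of the 7.

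Scarb1 had signals of 5951, 7358 and 3534 in Ihh_KO 1 to 3 and 1927 on the array labelled Ihh_KO 4, against 2565, 3142, 2759 and 1689 in controls 5 to 8. The arrays Ihh_KO 1 to 3 lay above all controls, and the array labelled Ihh_KO 4 lay among them. The log2 difference was 0.75 with all 4 arrays (limma, unadjusted p = 0.041, adjusted p = 0.34). Without the array labelled Ihh_KO 4 it was 1.11 (SE 0.29; limma, adjusted p = 0.091).

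Star had signals of 8115, 10792 and 6827 in Ihh_KO 1 to 3 and 6360.3 on the array labelled Ihh_KO 4, against 4398, 6297, 7145 and 5873 in controls 5 to 8. Ihh_KO 1 and 2 lay above every control and the others among them (0.43, limma adjusted p = 0.57; 0.53 without the array labelled Ihh_KO 4, adjusted p = 0.47). Cyp11a1 had signals of 10176, 10546, 9231 and 9723 in Ihh_KO, the last from the array labelled Ihh_KO 4, against 7571, 8738, 8309 and 4607 in controls 5 to 8. All Ihh_KO arrays exceeded all controls, which was so for 1 of the 7 genes and 2.29% of all genes tested (0.48, limma adjusted p = 0.59; 0.49 without the array labelled Ihh_KO 4, adjusted p = 0.59). Dhh_KO and Ihh_KO were compared with the same 4 control arrays, so these 2 sets of values are not independent.

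Cyp17a1 had signals of 336, 176 and 2938 in Ihh_KO 1 to 3 and 230.1 on the array labelled Ihh_KO 4, against 5927, 317, 117 and 5321 in controls 5 to 8. A single Ihh_KO array, number 3, was high, where 2 of 4 controls were (log2 difference -1.21, 95% interval -4.48 to 2.05; -0.90 without the array labelled Ihh_KO 4, limma adjusted p = 0.83). Fdx1, Hsd3b1 and Nr5a1 differed by 0.12, 0.13 and -0.10 (limma, adjusted p from 0.56 to 0.84), and by 0.04, 0.07 and -0.20 without the array labelled Ihh_KO 4.

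No pathway or cell type gene on the lists was called in Ihh_KO, with or without the array labelled Ihh_KO 4. Of 9 cholesterol synthesis genes, 8 were higher (median log2 difference 0.54; 9 of 9 and 0.82 without that array), with Hmgcs1 at 9585 ± 2034 in Ihh_KO and 6505 ± 614 in controls 5 to 8 (SD; limma, adjusted p = 0.14). By array, the median deviation of this list was 1.08, 1.43 and 0.16 on Ihh_KO 1 to 3 and -0.05 on the array labelled Ihh_KO 4, against -0.37 to 0.16 in controls 5 to 8. Corpus luteum genes summed to 34617 to 39634 in Ihh_KO 1 to 3 and 13184 on the array labelled Ihh_KO 4, against 6286 to 28616 in controls 5 to 8. The part of luteal RNA in the Star and Scarb1 values was not tested. The Gapdh 3'/5' ratio was 1.90, 1.92 and 2.37 on Ihh_KO 1 to 3 and 2.11 on the array labelled Ihh_KO 4. In controls 5 to 8 it was 1.89 to 2.01, and its part in the Ihh_KO values was not tested.

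**Figure D4:**
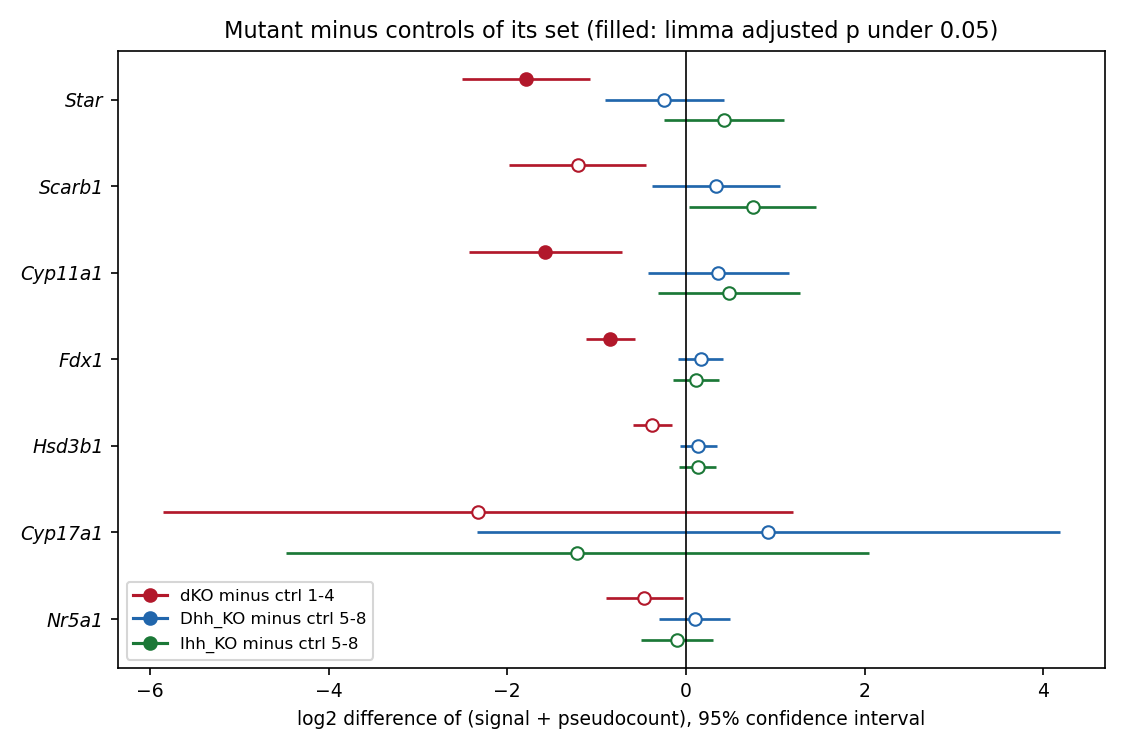
Log2 difference with its 95% interval for each of the 7 genes in Ihh_Dhh_dKO (against controls 1 to 4), Dhh_KO and Ihh_KO (each against controls 5 to 8); filled symbols passed the test across 12379 genes. Only Star (-1.79), Cyp11a1 (-1.58) and Fdx1 (-0.85) in Ihh_Dhh_dKO are filled, and the Cyp17a1 intervals are the widest.

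Differences between the effects of the deletions. The effect in Ihh_Dhh_dKO was then set against the effect in each single knockout, each relative to the controls of its own set. All 7 differences were negative in both cases. Against the Dhh_KO effect, Fdx1 passed the test (log2 difference of effects -1.01, SE 0.18; limma, adjusted p = 0.014), 1 of 7 genes beside 0.606% of all genes called and 0.250% called lower. Star (-1.55, adjusted p = 0.12), Scarb1 (-1.55, 0.14), Cyp11a1 (-1.94, 0.10) and Hsd3b1 (-0.52, 0.092) did not pass.

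Against the Ihh_KO effect, Star (-2.22, SE 0.47; limma, adjusted p = 0.045) and Fdx1 (-0.96, SE 0.18; adjusted p = 0.038) passed, 2 of 7 genes beside 0.396% of all genes called and 0.153% called lower. When the array labelled Ihh_KO 4 was left out, with 0.274% of all genes called, Fdx1 (-0.89, adjusted p = 0.043) and Scarb1 (-2.33, adjusted p = 0.028) passed and Star (-2.32, adjusted p = 0.054) did not. When 1 array at a time was left out, between 0 and 5 of the 7 genes were called, with 5 without control 4 and 0 without Ihh_Dhh_dKO 3, Ihh_KO 2 or control 1, 2, 3, 5 or 7.

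A fit that allowed the matched control arrays to share a correlation (0.65) called Star, Scarb1, Cyp11a1, Fdx1 and Hsd3b1 in both comparisons, 5 of 7 genes beside 5.43% of all genes against Dhh_KO and 5.63% against Ihh_KO. With that correlation, no gene of the 7 was called in Ihh_KO against Dhh_KO (0% of all genes called). Without it, none was called there either (0% of all genes called and 11.6% with an unadjusted p under 0.05). In this fit 1 of the 7 had an unadjusted p under 0.05, Star at 0.67 (limma, unadjusted p = 0.050). With the array labelled Ihh_KO 4 left out, Star stood at 0.77 (limma, unadjusted p = 0.040) and Scarb1 at 0.78 (unadjusted p = 0.017), against 0.41 for Scarb1 with it, and again none was called (0.210% of all genes). Nor was any called for non-additivity, the double effect minus the sum of the single effects (0.0242% of all genes called and 15.9% with an unadjusted p under 0.05; 5 of the 7 had an unadjusted p under 0.05, limma), where Fdx1 stood at -1.13 (adjusted p = 0.094). None was called there without the array labelled Ihh_KO 4 either (0% of all genes; Fdx1 -1.05, limma adjusted p = 0.10, and Scarb1 -2.66, adjusted p = 0.079). With the shared correlation the 5 genes above were called for non-additivity, beside 3.35% of all genes.

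Cyp17a1 and Star across arrays. Within controls 1 to 4 the arrays ordered by falling Cyp17a1 signal (1, 4, 2, 3) were ordered by rising Star signal, and the same order held for controls 5 to 8 (5, 8, 6, 7) and for Dhh_KO (1, 4, 2, 3). In each of these groups the array with the most Cyp17a1 thus had the least Star. Controls 1 and 5, with Cyp17a1 at 8765 and 5927, had Star at 4243 and 4398, and controls 3 and 7, with Cyp17a1 at 74.1 and 117, had Star at 7260.1 and 7145. The Ihh_Dhh_dKO arrays departed from this, with Cyp17a1 at 565, 303 and 76.8 beside Star at 2289, 2738 and 666, so both were low. Ihh_KO 3, 1 and 2, in order of falling Cyp17a1 (2938, 336 and 176), had rising Star (6827, 8115 and 10792). With the array labelled Ihh_KO 4 (Cyp17a1 at 230, Star at 6360) the order was not kept. This pattern was chosen after the values were seen, and the matched control arrays do not count as independent. For 4 of 4 Dhh_KO arrays the best match among controls 5 to 8 was their own number, so Dhh_KO may not be a separate instance.

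**Figure D5:**
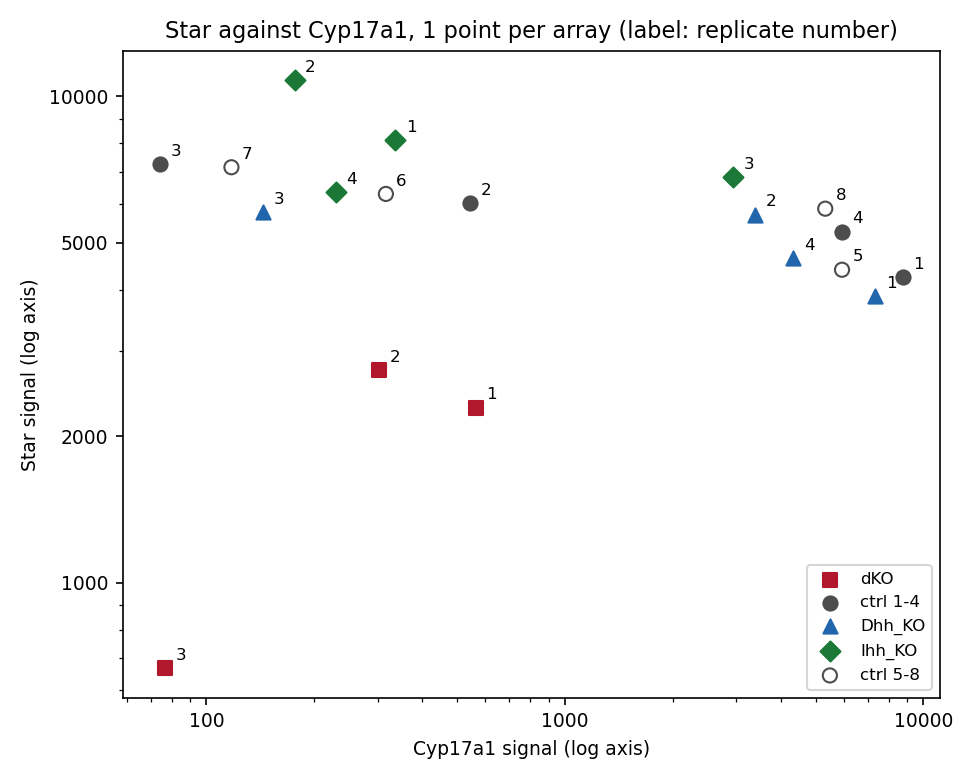
Star signal (vertical) against Cyp17a1 signal (horizontal), both on log10 axes, on the 19 arrays, coloured by group. Controls and Dhh_KO arrays run from upper left (control 3 at 74.1 and 7260.1) to lower right (control 1 at 8765 and 4243), and the 3 Ihh_Dhh_dKO arrays lie below them at Star signals of 666 to 2738.

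Genes with a like pattern. Over all 19 arrays, after subtracting the control mean of the set, the genes whose log2 values followed a member most closely were listed as a description; points share controls and sets. Star was followed most closely by the endothelial sialomucin Emcn (r = 0.91), and Cyp11a1 was among its 5 closest genes (r = 0.88). Over the 16 arrays outside Ihh_Dhh_dKO, r of Star with Cyp11a1 was 0.29. For the other genes named here r was not computed without Ihh_Dhh_dKO. Scarb1 was followed by Mllt11 and by the lipoprotein receptor Lrp8 (r = 0.92 each), with Sc5d, a cholesterol synthesis enzyme, at 0.91. Cyp11a1 was followed by Tmem86a and Tacc1 (r = 0.95 each). Fdx1 was followed by the collagen gene Col1a2 and by Gpam (r = 0.92 each), and its 5 closest genes held Emcn and Acta2 (0.91 each). Hsd3b1 was followed by Malat1 (0.96) and by the mitochondrial respiration genes Atp5c1 and Cox6c (0.95 each). Cyp17a1 was followed by Spsb1 (0.91). Nr5a1 was followed by Aldh1a2 (0.83), a retinoic acid enzyme and the 1 gene of the surface epithelium list that was lower in Ihh_Dhh_dKO.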

How the data were processed

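Total ovarian RNA was isolated with a PicoPure kit and 50 ng of it went into WT-Ovation Pico amplification and biotin labelling, per the labels' protocols. The deposited values are linear intensity signals from MAS5, per the submitters' processing notes. On all 19 arrays the mean of the deposited intensity over 45101 probe sets, after trimming 2% at each end, was 500.0, and no further normalization was applied. The number of arrays limits the precision.

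The members, gene lists and tests were chosen with earlier results of these data known. The scale was log2(signal + 7.02), where the pseudocount is the 10th percentile of the whole table. A filter removed probe sets whose mean log2 lay under the 40th percentile (6.26), and the brightest probe set naming a single gene stood for each gene. limma 3.58.1 (lmFit, eBayes with trend; R 4.3.3) fitted 5 means (3 mutant groups and the controls of each set) over 12379 genes, two-sided, with Benjamini-Hochberg adjustment and a threshold of 0.05. The script was tested on simulated data. Summaries used Python 3.11.15, pandas 2.3.3 and numpy 2.4.6, and figures matplotlib 3.10.9.

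Lists are described by counts and medians. Named were all 7 genes, list genes called in a mutant group and up to 2 others per list and comparison with the smallest p, genes checking the labels or tissue, and the 5 genes most like each member, predicted genes skipped. Of 168 list genes on 17 lists, 133 were tested and 18 had no single-gene probe set and were not analysed here.

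The alternatives were other normalizations, pseudocounts, filters and probe set rules, other sets of controls, correlated or blocked controls, and each array left out.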

Additional observations from a re-analysis of the deposited data

Results flagged for a closer look

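Cyp11a1 on control array 4 read 5545, far from 10671 to 11658 on controls 1 to 3. Of 28 groups of 4 arrays examined for the 7 genes this was the 1 group with an array so far from the others, and chance gives about 1 in 20. Control 8, its match in the other set, was also the lowest of its set (4607).

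Fdx1 differed between the Ihh_Dhh_dKO effect and the Dhh_KO effect by -1.01 (log2; limma, adjusted p = 0.014). It differed between the Ihh_Dhh_dKO effect and the Ihh_KO effect by -0.96 (adjusted p = 0.038). The call against Dhh_KO was lost in 1 of the 19 fits that left out 1 array (without Ihh_Dhh_dKO 3, adjusted p = 0.052) and the call against Ihh_KO in 8 (adjusted p up to 0.097). With quantile normalization both were lost (adjusted p = 0.081 against Dhh_KO and 0.12 against Ihh_KO). Star differed between the Ihh_Dhh_dKO effect and the Ihh_KO effect by -2.22 (adjusted p = 0.045), and this call was lost in 16 of those 19 fits and with quantile normalization (adjusted p = 0.10).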

How the results depend on the processing

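Limits: 3 or 4 arrays per group, controls that match across sets, and sets absent from the labels. Causes of the changes below were not tested. Log2 differences are from limma with adjusted p.

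With quantile normalization, Cyp11a1 in Ihh_Dhh_dKO stood at -1.42 (0.088), no member was called for a difference from the single effects (0 against Dhh_KO, 0 against Ihh_KO), and Hsd3b1 in Dhh_KO (-0.0032) and Fdx1 in Ihh_KO (-0.016) turned sign. With median centring, 225 genes were called in Ihh_Dhh_dKO and 1 in Ihh_KO, Hsd3b1 in Ihh_Dhh_dKO passed (-0.40, 0.030) and Nr5a1 in Ihh_KO turned sign (0.051). The larger pseudocount (29.4) gave 1 gene in Dhh_KO, and no pseudocount gave 0 in Ihh_KO. No filter gave 7 genes in Ihh_KO. The filter at the 60th percentile gave 246 in Ihh_Dhh_dKO, 0 in Ihh_KO and 1 member against the Ihh_KO effect. Averaged probe sets gave Cyp11a1 -1.17 (0.088), 1 gene in Ihh_KO and 1 member against the Ihh_KO effect. Probe sets one by one gave 8 in Ihh_KO.

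With all 8 controls as 1 group, 594 genes were called in Ihh_Dhh_dKO and 19 in Dhh_KO, 3 members against the Dhh_KO effect and 3 for non-additivity. In Dhh_KO, Scarb1 (-0.081), Hsd3b1 (-0.0095) and Nr5a1 (-0.039) turned sign, as did Fdx1 (-0.047) and Hsd3b1 (-0.017) in Ihh_KO. With matched controls correlated, 0 genes were called in Ihh_KO, and 5 members in each of the 2 differences and for non-additivity. With only the arrays of the set, 0 members and 82 genes were called in Ihh_Dhh_dKO and 1 gene in Ihh_KO. The replicate block by the labels' numbers, possible for Ihh_Dhh_dKO against controls and Ihh_KO against Dhh_KO, called Scarb1 in Ihh_Dhh_dKO (-1.43, 0.010). The replicate block with matched numbers gave Scarb1 -1.42 (0.0020), 692 genes in Ihh_Dhh_dKO, 1 in Ihh_KO, and 3, 4 and 1 members against Dhh_KO, against Ihh_KO and for non-additivity. The labels do not say what the numbers mean. Same-numbered deviations correlated at 0.158, 0.274 and 0.0743 for Ihh_Dhh_dKO with controls 1 to 3, so these were not taken as pairs, and at 0.204, 0.133 and 0.177 for Ihh_Dhh_dKO with Dhh_KO. With numbers matched across control sets, they ranged from 0.059 to 0.356 for Dhh_KO and from -0.184 to 0.196 for Ihh_KO with controls 5 to 8. Own numbers gave the best match for 2 of 3 Ihh_Dhh_dKO arrays among controls 1 to 4 and 3 of 3 among Dhh_KO, and for 4 of 4 Dhh_KO and 2 of 4 Ihh_KO arrays among controls 5 to 8.

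Leaving out 1 array gave 2 to 4 members and 127 to 502 genes in Ihh_Dhh_dKO (127 without Ihh_Dhh_dKO 3), 0 to 7 genes in Dhh_KO and 0 to 57 in Ihh_KO. Members called ranged from 0 to 3 against the Dhh_KO effect, 0 to 5 against the Ihh_KO effect and 0 to 1 for non-additivity. In Ihh_Dhh_dKO, Star (-2.17 to -1.16) and Fdx1 (-0.73 at its smallest) were called in all 19 fits. Scarb1 passed without the array labelled Ihh_KO 4 (-1.21, 0.030), and Hsd3b1 without control 4 (-0.45, 0.023) or Ihh_Dhh_dKO 3 (-0.48, 0.043). In Dhh_KO, Cyp17a1 ranged from -0.11 (without control 7) to 2.17 and Nr5a1 from -0.030 (without Dhh_KO 1) to 0.24.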

Other observations

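In Ihh_KO against controls 5 to 8, the steroid enzymes with the smallest p outside the 7 genes were Srd5a3, a reductase of the steroid 5-alpha-reductase family, at 0.72 (log2; limma, adjusted p = 0.19), and Hsd3b7, an enzyme of bile acid synthesis, at 0.69 (adjusted p = 0.22). The orders of the 4 control arrays by Star, by Cyp11a1 and by Cyp17a1 were each the same in both sets once matched arrays were set side by side.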
